A study of Mus musculus with 6 samples.

Results

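The loci described here are the autosomal microRNA genes of the mouse, taken as the annotated precursor (hairpin) record plus 500 bp on each side. Of 1074 autosomal genes of type miRNA in GENCODE M21 whose symbol is Mir followed by a digit, 177 (16.5%) had 3 or more measured CpG cytosines and were kept, another 41 had 1 or 2, and 856 had none. Together the 177 loci held 3374 of the 890041 cytosines in the whole table, which belonged to 2822 CpGs because the strands of a CpG were listed separately. Between 3 and 84 cytosines were measured at a locus, with a median of 14. Precursors that lie close together share cytosines, so the 177 loci had 165 distinct sets of cytosines, and 21 loci shared 9 of these sets completely.

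Methylation came from reduced representation bisulfite sequencing (RRBS), in which genomic DNA is cut at a CpG-containing restriction site and bisulfite separates methylated from unmethylated cytosines. The tissue was micro-dissected dentate gyrus, the hippocampal subregion in which new neurons are added in adult life, from 6 female C57BL/6JRj mice aged 4.5 months. From the age of 6 weeks, 3 of the mice were kept with environmental enrichment (ENR), a large enclosure with tunnels and toys, and 3 in standard cages (STD). Each library came from a different mouse. The study's methods place ENR mice together in 1 enclosure and STD mice in smaller groups, so housing and enclosure cannot be told apart. Every value is the percentage of reads that were methylated, and a locus value is the mean over its measured cytosines. The number of reads behind a percentage is unknown beyond the minimum of 10 reads per cytosine.

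MicroRNAs are short RNAs that are cut from a hairpin in a longer transcript and guide silencing proteins to messenger RNAs. Bases 2 to 8 of the mature strand, the seed, pair with the target, so mature RNAs with the same seed have overlapping targets even when their genes lie on different chromosomes. Many hairpins sit inside the introns or exons of other genes, and a microRNA can be made from several gene copies that differ in their surroundings. In the brain, miR-124, miR-9 and miR-128 are abundant in neurons, miR-132 and miR-212 are induced by neuronal activity, and miR-219 promotes the maturation of oligodendrocytes.

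The mature sequences below belong to the loci on which the results turn, with the seed in capitals, taken from RefSeq (GRCm38.p6). They show one RNA made from 2 loci (miR-219a-5p), one made from 3 loci (miR-9), neighbours with a shared seed (miR-132 and miR-212), a seed shared by loci on different chromosomes (miR-25 and miR-92b), and 3 arms whose seed holds a measured CpG (miR-128-2-5p, miR-25-5p and miR-433-5p).
miR-219a-5p: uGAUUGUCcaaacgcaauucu
miR-9-5p: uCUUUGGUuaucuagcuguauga
miR-9-3p: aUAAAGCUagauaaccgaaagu
miR-128-3p: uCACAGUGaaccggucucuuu
miR-128-2-5p: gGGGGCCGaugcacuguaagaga
miR-132-3p: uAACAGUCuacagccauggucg
miR-212-3p: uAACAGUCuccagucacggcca
miR-25-3p: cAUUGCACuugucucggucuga
miR-25-5p: aGGCGGAGacuugggcaauugc
miR-92b-3p: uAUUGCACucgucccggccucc
miR-433-5p: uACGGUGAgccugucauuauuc

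Most covered microRNA loci had low methylation in the dentate gyrus. This describes the 16.5% of genes with enough cytosines, and the levels at the other genes are not known. The mean over the 6 libraries was under 20% at 114 loci, from 20% to 80% at 35 and over 80% at 28, and it spanned 0.446% to 98.5% with a median of 3.61%. The share under 20% was 64.4%, close to the 63.4% of all autosomal gene loci and lower than at loci of small nuclear and nucleolar RNAs (76.3%) or protein-coding gene starts (95.7%). Here and below, a gene locus is the whole gene record plus 500 bp on each side, so many are longer than a microRNA locus. Of the 3374 cytosines, 1498 (44.4%) were at 0% in every library, against 29.8% of all cytosines in the table, and 12 were at 100% in every library. The mean over the 177 loci was 26.4%, 26.7% and 24.9% in the STD mice and 26.7%, 27.2% and 24.0% in the ENR mice. Both libraries with replicate number 3 were the lowest of their group, as they were over all cytosines of the table (22.5% and 21.3%, against 23.9% to 24.3% in the other 4). The loci of small nuclear and nucleolar RNAs, whose records are also short, numbered 118 under the same rule and had a mean of 19.8% ± 0.938 in STD and 19.4% ± 1.02 in ENR (SD, n = 3), lower than the microRNA loci in 6 of 6 mice.

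Methylation differed with the sequence around the hairpin and its distance from a transcription start. The 99 loci within 1 kb of the start of a protein-coding or long non-coding transcript had a median of 1.75%, and the 78 loci farther away had a median of 36.8%. Of the 78 loci with an observed to expected CpG ratio of 0.6 or more, the ratio used to define CpG islands, 74 were under 20% and none was above 43.7%. The 4 exceptions were Mir219a-2, Mir219b, Mir291a and Mir5046. Of the 99 loci with a lower ratio, 40 were under 20%, and their median was 36.9%. Across the 165 distinct sets, the level and the CpG ratio had a Pearson r of -0.64 and a Spearman rho of -0.71, a description over loci that share the same 6 libraries. Loci overlapping an exon of a host gene (58 loci, median 1.95%) were lower than loci in introns (64 loci, median 14.1%), but 89.7% of the exonic loci and 46.9% of the intronic loci were close to a start. Lying over 1 kb from an annotated start did not always go with high methylation, since 26 of these 78 loci were under 10%. Among them were 4 hairpins of neuronal microRNAs. Their distances were 1103 bp (Mir9-1), 1885 bp (Mir129-2), 5143 bp (Mir9-3) and 67058 bp (Mir128-2), so some lay only just past the limit.

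**Figure D1:**
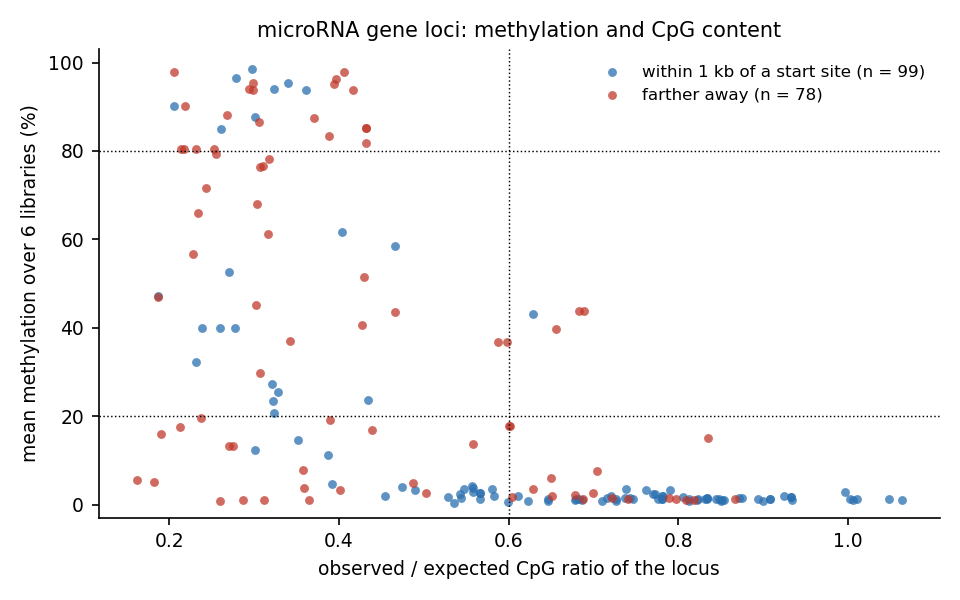
Each point is 1 of the 177 microRNA loci, with the observed to expected CpG ratio of the locus on the x axis and the mean methylation over 6 libraries (%) on the y axis. Blue points lie within 1 kb of a transcription start and red points farther away. Almost all loci with a ratio of 0.6 or more (dotted vertical line) sit below 20%, whereas loci with a lower ratio cover the whole range.

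Taken over loci, the medians inside and outside the hairpin were close. At the 82 loci with measured cytosines both inside and outside the precursor record, the median was 1.92% inside and 1.85% outside. Medians were also close for loci from 20% to 80% (9 loci, 43.4% inside and 42.1% outside) and over 80% (7 loci, 95.8% and 94.8%). Single loci differed in both directions. Mir330 averaged 46.6% inside the record and 23.7% over the locus, Mir7685 14.5% and 45.1%, and Mir291b 31.4% and 43.6%. The first 2 had 1 cytosine inside the record and Mir291b had 4. Measured CpGs also fell inside the mature RNA sequence itself. Of 111 such CpGs, 97 were under 20%, 5 from 20% to 80% and 9 over 80%, and 37 lay in a seed, of which 27 were under 20%, 2 from 20% to 80% and 8 over 80%.

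Copies of one microRNA could differ widely, as at Mir219a. Its mature strand miR-219a-5p is the same at both genes, Mir219a-1 on chromosome 17 in an exon of Gm26940, and Mir219a-2 on chromosome 2, intergenic and 3983 bp from the nearest start, that of Urm1. Both precursors are printed on the minus strand of mm10 with every measured CpG in capitals, and both contain the CpG at bases 13 and 14 of the mature strand. Mir219a-1 spans chr17:34024983-34025092 and Mir219a-2 spans chr2:29845631-29845727.
Mir219a-1: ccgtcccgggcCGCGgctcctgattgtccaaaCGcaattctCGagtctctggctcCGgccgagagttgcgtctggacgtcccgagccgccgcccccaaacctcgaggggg
Mir219a-2: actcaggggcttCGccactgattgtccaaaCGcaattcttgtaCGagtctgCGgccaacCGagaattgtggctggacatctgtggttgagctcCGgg

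At Mir219a-1 the 36 cytosines averaged 2.66%, 2.78% and 3.98% in the STD mice and 1.51%, 1.84% and 1.29% in the ENR mice. At Mir219a-2 the 40 cytosines averaged 40.3%, 49.2% and 45.5% in STD and 53.7%, 45.3% and 28.4% in ENR. Mir219a-2 was thus higher in 6 of 6 mice, by 41.4 ± 8.53 percentage points (SD, n = 6). The exact two-sided permutation test over the 6 mice gave p = 0.0312, the smallest that 6 pairs allow, and p = 0.125 after adjustment over the 4 pairs of copies compared. The intermediate level was spread over the whole locus, as 37 of its 40 cytosines were between 20% and 80% and none was higher, while 13 of the 36 cytosines of Mir219a-1 were at 0% in every library and the highest averaged 11.2%. The CpG inside miR-219a-5p was 0% in all 6 mice at Mir219a-1. At Mir219a-2 the cytosine of the same CpG on the same strand of the genome was methylated at 37.5%, 69.6% and 35.2% in STD and at 41.8%, 46.4% and 2.5% in ENR, and the cytosine on the other strand at 27.3%, 59.8% and 57.4% in STD and at 75%, 40.7% and 41.9% in ENR. Mir219b, which is transcribed in the other direction across Mir219a-2, shared all 40 cytosines, and Mir219c, antisense to Mir219a-1, had the same low level as its partner (2.35%).

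**Figure D2:**
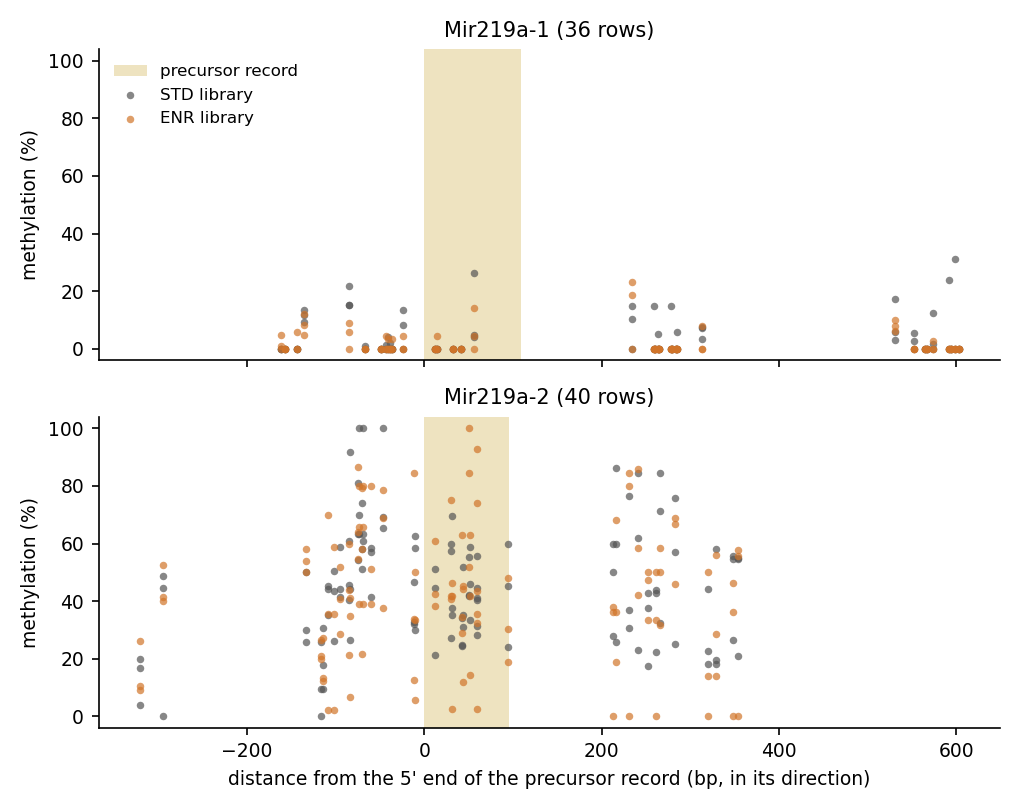
Methylation (%) of every measured cytosine at Mir219a-1 (36 cytosines, top) and Mir219a-2 (40 cytosines, bottom) against the distance in bp from the 5′ end of the precursor record, which is shaded, with 1 point per STD library (grey) or ENR library (orange). Cytosines of Mir219a-1 stay near 0% inside and outside the hairpin, whereas those of Mir219a-2 scatter around 43.7% over the whole locus in both groups.

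The covered neuronal microRNA loci mostly had low methylation. Of 29 annotated genes in the list of neuron-enriched microRNAs, 8 had enough cytosines. Of these, 7 were under 20%, a class that held 64.4% of all covered microRNA loci. The median was 2.77%, beside 3.61% over the 177 microRNA loci and 10.5% over all 22142 gene loci. Mir124a-3, a source of miR-124, averaged 1.48% over 44 cytosines. Its library values were 1.61%, 1.31% and 2.47% in STD and 0.925%, 1.06% and 1.49% in ENR. Mir129-2 was at 1.03% over 32 cytosines. At Mir149, in an intron of Gpc1, the mean of 4 cytosines ranged from 0% to 25.6% in STD and from 12.3% to 31.6% in ENR, the widest scatter of the list. Mir330, 44 bp from the start of Eml2, was the most methylated, at 23.7%. Of these 8 loci, 4 had a lower ENR than STD mean, and the median difference was -0.081 percentage points, beside -0.194 over all gene loci.

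Mir128-2 was low although it lies in an intron of Arpp21, 67058 bp from the nearest annotated start. Over 25 cytosines it averaged 4.16%, 5.23% and 4.59% in STD and 3.82%, 6.58% and 4.22% in ENR, so the groups overlapped. Both CpGs of its precursor, chr9:112118636-112118711 on the minus strand of mm10, fell in a mature arm and are in capitals below. The first lies at bases 7 and 8 of miR-128-2-5p, inside the seed, and averaged 1.79% over both strands. The second lies at bases 12 and 13 of miR-128-3p, where the cytosine on the plus strand averaged 1.11% and that on the minus strand 6.51%.
Mir128-2: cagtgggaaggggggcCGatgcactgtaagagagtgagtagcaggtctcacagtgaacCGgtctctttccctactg

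The 3 genes for miR-9, a microRNA of neural progenitors and neurons, were all low, at 1.19% for Mir9-1 (19 cytosines), 4.07% for Mir9-2 (5) and 1.35% for Mir9-3 (21). Mir9-2, in an exon of the long non-coding RNA gene C130071C03Rik, had 0.157%, 4.72% and 1.34% in STD and 6.23%, 5.22% and 6.77% in ENR. Every ENR mouse was above every STD mouse, by 4.0 ± 1.2 percentage points (SE), with an unadjusted p of 0.0147 in limma and an adjusted p of 1.00. The difference was 2.26 with a window of 1000 bp and 1.34 with the median over cytosines in place of the mean. The gap between the highest STD and the lowest ENR mouse was small beside the spread of the STD mice. The larger differences were at cytosines in the flanks. The CpG inside miR-9-3p was at 0%, 4.42% and 0% in STD and 3.65%, 0% and 0% in ENR. The cytosine 99 bp from the 5′ end of the record, downstream of the hairpin, was at 0.787%, 11.5% and 0% in STD and 8.09%, 14% and 18.2% in ENR, which overlapped. The stretch printed below holds the hairpin and 32 bases after it, chr13:83738814-83738917 on the plus strand of mm10, with the measured CpGs in capitals. Mir9-2 was higher than Mir9-1 in 5 of 6 mice and higher than Mir9-3 in 4 of 6 (exact two-sided permutation tests, p = 0.0938 and 0.125, both 0.167 after adjustment over the 4 pairs of copies).
Mir9-2: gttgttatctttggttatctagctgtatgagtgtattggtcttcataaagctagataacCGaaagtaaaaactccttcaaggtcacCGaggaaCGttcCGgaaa

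Among microRNAs linked to neuronal activity and plasticity, 6 of 21 genes were covered, 4 of them under 20%. Mir132 and Mir212, neighbours in an intron of 1700016P03Rik, shared 26 cytosines and averaged 1.34%, 2.20% and 0% in STD and 1.46%, 0.296% and 2.0% in ENR. One cytosine of this pair stood out, 145 bp upstream of the Mir212 record (chr11:75173243), with 34.8%, 57.1% and 0% in STD and 0%, 7.69% and 0% in ENR, so that the groups overlapped (limma, unadjusted p = 0.0912, adjusted p = 0.852). Mir34b and Mir34c, targets of p53 that share the seed of their 3p arms, were at 1.89% and 1.68%. Mir135b, in an intron of Lemd1, was methylated at 88.2%.

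Mir26a-1, in an intron of the phosphatase gene Ctdspl, had the highest ENR minus STD difference of the 24 covered genes of the brain lists. Its 3 cytosines averaged 27.2%, 21.4% and 21.1% in STD and 41.1%, 26.6% and 41.3% in ENR. The second ENR mouse lay below the highest STD mouse, and the difference was 13.1 ± 4.48 percentage points (SE), with an unadjusted p of 0.0249 in limma and an adjusted p of 1.00. All 3 cytosines lie downstream of the hairpin within chr9:119031919-119032014, printed below on the plus strand of mm10 with their CpGs in capitals. The middle one carried most of the difference, with 26.0%, 17.3% and 29.3% in STD against 55.0%, 30.4% and 65.7% in ENR, while the last one had 28.9%, 11.1% and 11.3% against 13.8%, 10.5% and 19.7%.
Mir26a-1: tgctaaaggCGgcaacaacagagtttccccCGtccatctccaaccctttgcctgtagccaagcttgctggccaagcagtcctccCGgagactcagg

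The covered glial and progenitor loci had higher medians (43.7% and 39.8%) than the neuronal ones. In the glial list, 4 of 18 genes were covered, and 4 of 4 had a lower ENR mean (57.4% of all gene loci did), with Mir219a-2 and Mir219b sharing their cytosines. Beside the Mir219a copies and Mir219b, this was Mir142, a microRNA of blood cells and microglia, with 84.6%, 88.5% and 85.5% in STD and 93.6%, 90.5% and 69.0% in ENR. At Mir142 only the third ENR mouse lay below the STD mean (86.2%). The same was true of Mir219a-2 and Mir219b (STD mean 45.0%). In the progenitor and cell cycle list, 6 of 27 genes were covered and 5 were between 20% and 80%. Mir106b, Mir93 and Mir25 lie together in the replication gene Mcm7, within 312 bp of a start, and shared 4 cytosines that averaged 43.5%, 36.6% and 40.1% in STD and 39.5%, 43.4% and 36.5% in ENR. These cytosines differed from each other more than the mice did. The CpG in the seed of miR-25-5p averaged 83.0%, the one in miR-25-3p averaged 19.1%, and the one between them averaged 23.1%. Mir92b, whose miR-92b-3p has the seed of miR-25-3p, averaged 2.91% over 14 cytosines. Mir290a, Mir291a and Mir292, from the cluster of embryonic stem cell microRNAs on chromosome 7, averaged 17.8%, 39.7% and 36.8%. Single cytosines in this cluster differed in both directions. One lies downstream of Mir292 and inside the precursor record of Mir291b (chr7:3219526). It had 3.85%, 26.5% and 0% in STD and 35.4%, 72.7% and 90% in ENR, without overlap and with a difference of 55.9 percentage points (limma, unadjusted p = 0.0186, adjusted p = 0.852). At the CpG shortly before it, the cytosine on the minus strand (chr7:3219426) had 59.6%, 41.2% and 47.8% in STD and 25%, 33.3% and 13.3% in ENR, also without overlap, and its partner on the plus strand had a difference of -28.9 percentage points. The locus means of Mir292 and Mir291a differed by 0.89 ± 5.78 and -4.21 ± 6.07 (SE).

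**Figure D3:**
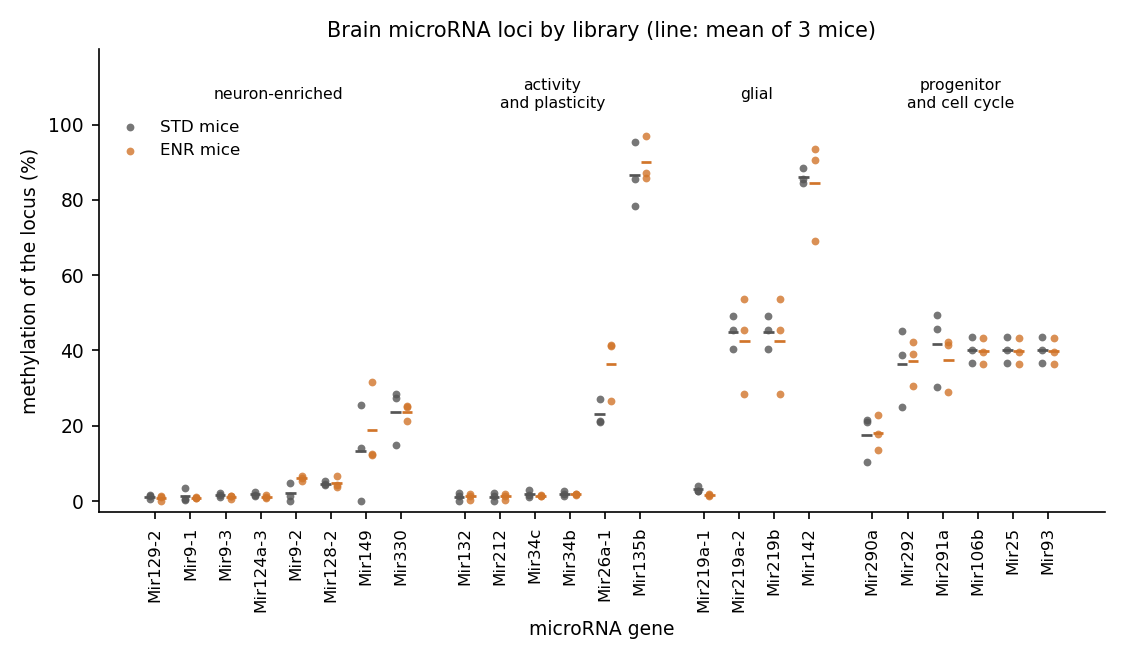
Methylation (%) of the 24 covered loci of the 4 brain lists, with 1 point per mouse (STD grey, ENR orange) and a line at the mean of 3 mice. Neuronal and activity-linked loci lie mostly near 0%, and loci of the progenitor and cell cycle list mostly near 40%. In that list, Mir25, Mir93 and Mir106b share 4 cytosines, and Mir290a, Mir291a and Mir292 belong to a cluster of embryonic stem cell microRNAs. The groups overlap at 22 of the 24 loci, the exceptions being Mir9-2 and Mir219a-1 (8.33% without overlap, against 8.71% of all gene loci).

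Outside the brain lists, the covered loci in the list of imprinted clusters were highly methylated. Of its 62 annotated genes, 8 were covered, and 7 of these were over 80%. All 8 lie on chromosome 12 in the Dlk1 to Dio3 region, in which microRNAs are made from the maternal chromosome. The list leaves out Mir1906-1, in an exon of Meg3, and Mir1247, in an exon of Dio3os, also on chromosome 12. These were at 84.9% and 2.81%, with ENR minus STD differences of 10.4 and -0.875 percentage points. The list mean was 80.6%, 83.9% and 82.0% in STD and 87%, 92.2% and 86.2% in ENR, without overlap, and 8 of 8 loci had a higher ENR mean, 4 of them through the same 5 cytosines of the Mir337 group. The ENR mean was higher at 74 of the 177 microRNA loci and at 42.5% of all gene loci. The difference of the means was 6.29 percentage points, a description of the list with no test, and none of the 8 loci was called. Mir434, antisense to the imprinted gene Rtl1, averaged 95.2%, and Mir370, in an intron of Rian, 76.3%. In Mir433 the CpG in the seed of miR-433-5p had 80.9%, 96.2% and 54.5% in STD and 100% in all 3 ENR mice. The CpG in miR-433-3p of the same hairpin had 100% in all 3 STD mice and 81.2%, 100% and 100% in ENR. Mir337, Mir3544, Mir540 and Mir665 shared 5 cytosines, which averaged 75.6%, 75.7% and 77.9% in STD and 81.9%, 90.2% and 80.9% in ENR. Of 35 annotated genes typical of other tissues, 8 were covered and ranged from 1.82% (Mir375, a microRNA of endocrine cells) to 93.8% (Mir141). Mir141 and Mir200c, a neighbouring epithelial pair, differed, with Mir200c at 61.7%. Mir203, of skin, had a CpG-rich locus at 15.2%.

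No microRNA locus differed between ENR and STD mice after correction. Over all 22125 gene loci that varied, limma called 0 (0%) at an adjusted p under 0.05, and so 0 of the 177 microRNA loci, whose lowest adjusted p was 1.00. At an unadjusted p under 0.05 there were 18 microRNA loci (10.2%), 11 with a lower and 7 with a higher ENR mean, against a background of 3.99% of all gene loci. They had 15 distinct sets of cytosines, since 4 of the 7 with a higher mean were the Mir337 group, and the count was 10 without STD replicate 2 and 11 without ENR replicate 2. Of 1864 cytosines at microRNA loci that varied, 0 passed the call of an adjusted p under 0.05 with a difference over 25 percentage points, which 0 (0%) of 615152 cytosines passed in the whole table, and 33 (1.77%) had an unadjusted p under 0.05, against 2.68% of all cytosines tested. At the loci this share was thus above, and at single cytosines below, that of the whole table. The mean over the loci was 26.0% ± 0.994 in STD and 26.0% ± 1.71 in ENR (SD, n = 3), a difference of -0.023 percentage points, far inside the spread. The difference was within 1 percentage point at 98 loci and within 5 at 147. It was over 10 at 10 loci (5.65%, against 2.57% of all gene loci), none of which had more than 5 cytosines. Here and below, the shares over all gene loci were not matched for length or number of cytosines. Whether higher shares are a trait of microRNA loci was not tested.

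**Figure D4:**
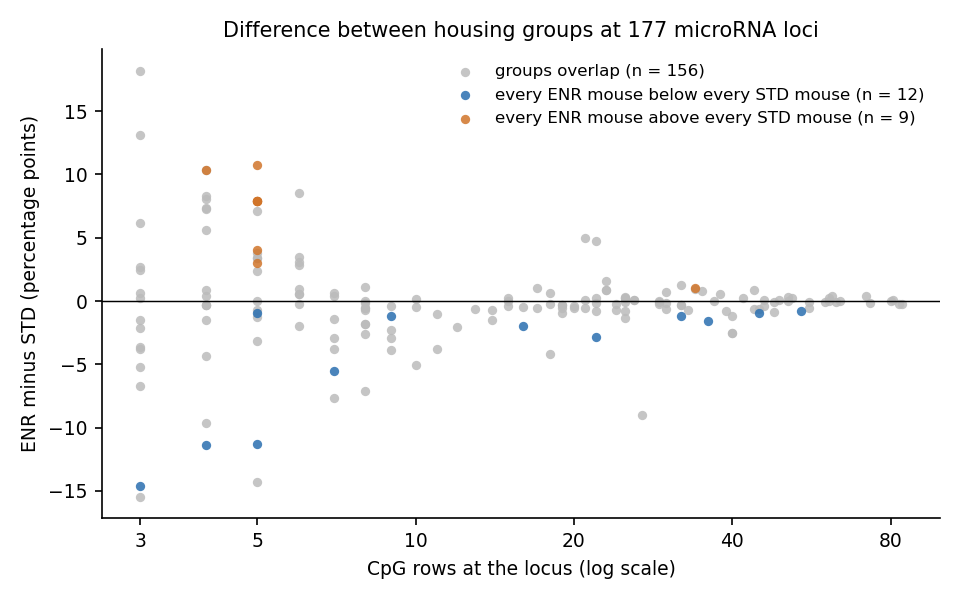
ENR minus STD difference (percentage points) of the 177 microRNA loci against the number of measured cytosines on a log scale. Blue and orange points mark the 12 and 9 loci at which the groups did not overlap, and differences over 10 percentage points occur only at loci with 3 to 5 cytosines.

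The spread between libraries differed with the level of a locus. The SD over the 6 libraries had a median of 7.82 percentage points for the 31 loci with 3 or 4 cytosines and 0.651 for the 73 loci with 20 or more, but the latter also had a lower median level (1.47% against 61.3%). Within the 35 loci from 20% to 80%, the median SD was 8.17 with 3 to 5 cytosines (20 loci) and 7.60 with more (15 loci). At 18 of these 35 loci the third ENR mouse was the lowest of the 6, and at 9 the third STD mouse was.

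The ENR and STD values did not overlap at 21 loci (11.9%, from 18 sets of cytosines), against 8.71% of all gene loci. Every ENR mouse was below every STD mouse at 12 loci (6.78%, background 5.57%) and above at 9 (5.08%, background 3.13%), and 4 of the 9 were the Mir337 group with its shared cytosines. Some of these differences were very small. Mir5103, in an exon of Gm37233, had the lowest p, with 6.28%, 6.47% and 4.15% in STD and 3.24%, 2.53% and 2.66% in ENR, a difference of -2.82 ± 0.723 percentage points (SE, limma, unadjusted p = 0.00715). Mir219a-1, with the values given above, differed by -1.59 ± 0.473 (SE, limma, unadjusted p = 0.0139), and the overlapping Mir219c by -1.22 ± 0.351. Mir1956, at the start of the translation factor gene Eif4e, had 0.708%, 0.870% and 1.23% in STD and 0% in all ENR mice, a difference of under 1 percentage point. Among the loci with higher ENR values, Mir9-2 came first, followed by Mir5133 in an exon of Glce, with 0.996%, 1.24% and 0.991% in STD and 1.59%, 2.07% and 2.55% in ENR. The Mir337 group differed by 7.89 ± 3.21 (SE, limma, unadjusted p = 0.0472), and by 4.96 without ENR replicate 2. All of these had an adjusted p of 1.00. With the median over cytosines in place of the mean, the difference was 2.46 for the Mir337 group and 0 at Mir219a-1, Mir219c, Mir1956 and Mir5133, while that of Mir5103 was -4.78, and with a window of 1000 bp it was 0.35 at Mir5133 and -0.56 at Mir1956. With the library means aligned it was 1.5 at Mir5133, -0.44 at Mir1956 and -0.72 at Mir219c. Inside the precursor record alone it was -0.78 at Mir219a-1 and -1.81 at Mir219c.

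Differences over 10 percentage points without overlap were found at 5 loci (2.82%, against 0.808% of all gene loci), each with 3 to 5 cytosines and named here because of their values. At 4 of the 5, leaving out 1 mouse moved the difference by over 1.5 times, a check added after seeing the data. Lower ENR values were measured at Mir99b, Mir130a and Mir7235, and higher ones at Mir3100 (10.7 percentage points, 4.21 without ENR replicate 2 and 17.3 with the median over cytosines) and Mir7665. At Mir7665, in an intron of Mapkbp1, the values were 96.4%, 93.4% and 76.4% in STD and 97.1%, 100% and 100% in ENR, a difference of 10.3, which was 4.17 without STD replicate 3. At Mir7235, in an intron of Tbkbp1, they were 76.4%, 70.7% and 73.5% in STD and 68.1%, 64.3% and 54.3% in ENR, a difference of -11.3 and of -7.34 without ENR replicate 3. Mir99b lies in an intron of Spaca6 beside Mirlet7e, and its 3 cytosines averaged 32.5%, 30.8% and 28.6% in STD and 13.1%, 7.57% and 27.5% in ENR. The difference was -14.6 ± 4.97 percentage points (SE, limma, unadjusted p = 0.0244, adjusted p = 1.00), and the third ENR mouse lay just under the lowest STD mouse. The cytosine with the largest gap lies 165 bp from the 5′ end of the Mir99b record, inside the record of Mirlet7e. It had 45.8%, 51.6% and 44.0% in STD and 20%, 7.14% and 54.5% in ENR, which overlapped. Mir130a, intergenic and 2477 bp from a start, had 35.0%, 17.9% and 22.8% in STD and 13.6%, 15.6% and 12.5% in ENR over 4 cytosines (-11.3 ± 4.25, SE, limma, unadjusted p = 0.0352), and the difference was -6.46 without STD replicate 1, -6.68 with the median over cytosines and -17.0 inside the precursor record alone. One of these, in the last base of the precursor record, had 100%, 35.7% and 76.2% in STD and 34.3%, 30.8% and 50% in ENR. Both stretches are printed with the measured CpGs in capitals, Mir99b as the flank chr17:17830279-17830372 on the plus strand and Mir130a as chr2:84741109-84741178 on the minus strand of mm10. The Mir99b flank ends inside the Mirlet7e record.
Mir99b flank: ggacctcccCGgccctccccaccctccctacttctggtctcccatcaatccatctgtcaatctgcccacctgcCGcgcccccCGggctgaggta
Mir130a: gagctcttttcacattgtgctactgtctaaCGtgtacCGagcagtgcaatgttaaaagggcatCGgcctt

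**Figure D5:**
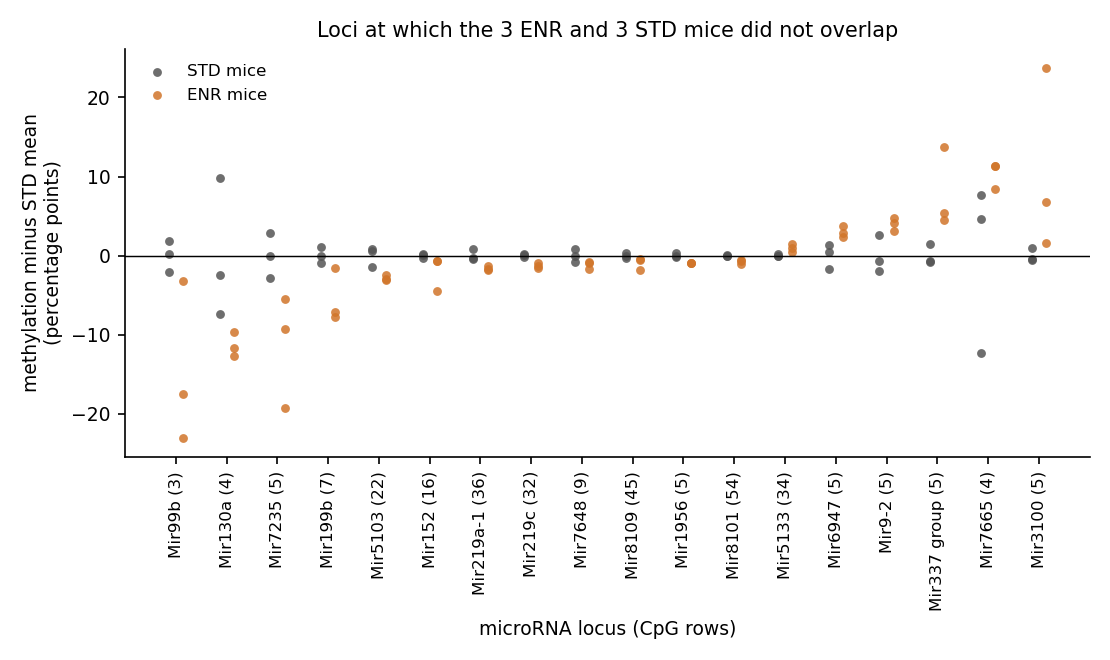
Methylation minus the STD mean (percentage points) of each mouse at the 18 distinct sets of cytosines at which the 3 ENR mice (orange) and the 3 STD mice (grey) did not overlap, with the number of cytosines in brackets. Loci with 16 or more cytosines differ by less than 3 percentage points, and the wide gaps belong to loci with few cytosines.

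Single cytosines with wide differences were found at 29 of the 177 loci. The difference was over 25 percentage points at 33 of 3374 cytosines (0.978%), 17 with lower and 16 with higher ENR means, against 1.94% of all cytosines. Within Mir219a-2 they went both ways, +32.3 percentage points at a cytosine inside the precursor (42.2%, 55.2% and 41.9% in STD, 100%, 51.7% and 84.4% in ENR) and -26.5 at one 84 bp upstream (91.7%, 44.1% and 26.7% in STD, 35.0%, 6.67% and 41.2% in ENR), while the locus mean differed by -2.55 ± 6.61 (SE).

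The widest scatter between mice of one group was at Mir2139, Mir143 and Mir145a. Mir2139, with 3 cytosines near the start of Klhdc7a, had 43.1%, 44.6% and 26.5% in STD and 66.2%, 89.5% and 13.1% in ENR, so the ENR mice alone covered more than the range of the STD mice. Mir143 and Mir145a, which lie close together on chromosome 18 and are typical of smooth muscle, had different levels. Mir143 was at 92.9%, 100% and 73.7% in STD and 100%, 82.0% and 41.7% in ENR, and Mir145a at 1.43%, 31.8% and 35.8% in STD and 7.53%, 28.4% and 10.2% in ENR. The tissue held several cell types, and their shares in each library were not measured.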

How the data were processed

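RRBS libraries of 3 STD and 3 ENR mice were analysed. The deposited values are percentages per cytosine and library: the authors trimmed reads with Trim Galore and cutadapt, aligned them to mm10 with Bismark, and filtered cytosines in methylKit by coverage (10 reads or more in each library, the most deeply read positions removed). Each strand of a CpG is a row of its own, values were not scaled between libraries, and 0 columns of per-sample values were left unused.

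Records came from GENCODE M21. Rows within 500 bp of a gene record were averaged per library, and loci with 3 or more rows were kept. ENR and STD were compared with limma 3.58.1 in R 4.3.3 (variance trend, Benjamini-Hochberg adjustment) over all autosomal gene loci that varied, and again over all varying cytosines, with an adjusted p under 0.05 as the call and, for cytosines, a difference over 25 percentage points. The scripts were tested on simulated data. Copies of one microRNA were compared by exact permutation over the 6 mice. The members and lists were chosen with earlier results of these data known. Loci were named if they were covered members of the 4 brain lists, among the 4 lowest p values without overlap in either direction, among the 3 largest SDs, or copies of one microRNA, and other names are examples of their list or class. Single cytosines were named for a difference over 25 percentage points, for lying in a mature sequence, or as part of a named locus. CpG ratios and sequences were read from GRCm38.p6, 1 of the 3374 cytosines at microRNA loci not being at a reference CpG, and 164 of the 177 loci matched a RefSeq microRNA entry.

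The replicate numbers 1 to 3 occur in both groups. Over all gene loci, deviations from the group means correlated between libraries of the same number with r = 0.14, 0.14 and 0.31, and between those of numbers 1 and 2 across the groups with r = 0.10 and 0.11, so that number 3 alone stood well apart. A fit with the replicate number as a block was run as an alternative. The labels do not say what a number shares. The other alternatives changed the window, the minimum of rows, the averaging, the scaling and the libraries used.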

Additional observations from a re-analysis of the deposited data

How the results depend on the processing

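No microRNA locus and no cytosine at one was called in limma under any of the alternatives run. With the replicate block, 0 loci and 0 cytosines were called, as without it, and 13 microRNA loci had an unadjusted p under 0.05 in place of 18, so the block changed no call. Over the other alternatives that count was 4 to 25, the lowest with the window set to 0 bp (53 loci) or the median over rows, and it was 10 to 19 when 1 library was left out. Over all gene loci the lowest adjusted p was 0.0558 without ENR replicate 3 and 0.0978 without STD replicate 2, and no microRNA locus was below 0.536. Loci without overlap numbered 4 with a window of 0 bp, 33 with 1000 bp (232 loci), 7 with 10 or more rows and 11 with the median over rows. Leaving out 1 library gave 34 to 42, since 2 mice against 3 overlap less often. In the classes under 20%, from 20% to 80% and over 80%, a window of 0 bp left 44, 8 and 2 loci. From 20% to 80% there were 22 loci with 250 bp, 19 with 5 or more rows and 9 with 10 or more, and over 80% there were 17 and 1 with these minimums. Cut at 10% and 90%, the classes held 62 intermediate and 15 high loci. The mean differences over all microRNA loci and over the brain lists moved by less than 1 SD throughout. Of the 34 named loci, the sign of the difference changed at 2 to 7 when 1 library was left out, except for 12 without ENR replicate 3. It also changed at 4 of 10 with a window of 0 bp, at 6 of 34 with library means aligned and at 2 or 3 with other windows, with strands averaged or with the median over rows, and at none with a higher minimum of rows. The median over rows moved 11 of 34 by more than 1 SD, 0 bp moved 6 of 10, aligned means 5 and 1000 bp 4. A logistic model of reads could not be fitted from percentages alone and was not run.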

Other observations

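The let-7 genes and X-linked microRNA genes lie outside the symbol or chromosome rule used above, and few were covered. Of 11 let-7 genes, which encode a large family that restrains growth and is abundant in differentiated neurons, 2 had 3 or more cytosines. Mirlet7i on chromosome 10 averaged 1.17% over 46 cytosines, with 1.15%, 0.36% and 1.62% in STD and 0.87%, 1.40% and 1.64% in ENR. Mirlet7e on chromosome 17 held the same 3 cytosines as Mir99b and so had the same values, 32.5%, 30.8% and 28.6% in STD and 13.1%, 7.57% and 27.5% in ENR.

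Of 89 X-linked microRNA genes, 2 were covered, with 3 cytosines each. Mir7093 had 41.0%, 46.8% and 21.1% in STD and 22.2%, 14.7% and 20.1% in ENR, which overlapped only at the third STD mouse. Mir5617 had 42.4%, 46.7% and 72.5% in STD and 54.9%, 56.9% and 23.9% in ENR, with overlapping groups. These loci were not part of the fits.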
